A study of Mus musculus with 14 samples.

Results

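Keratins are the intermediate filament proteins of epithelial cells, and small proline-rich proteins are precursors of the cross-linked envelope of stratified epithelia. The levels of 10 such genes were read from an RNA sequencing table of 5 mouse ovarian cancer cell lines: Krt7, Krt8, Krt18, Krt19, Krt6a, Krt5, Krt14, Krt17, Krt20 and Sprr2a3. They were taken by name from the 35275 genes of the table, and all 10 were found. They were selected on their FPKM (fragments per kilobase of gene, scaled to the mapped fragments of the library) in these same samples, so their differences between lines are a description and were not tested. KMF, FAK KO, β-catenin ΔGSK and FAK-WT cells had 3 samples each, and FAK-R454 cells had 2. KMF cells are ID8-derived mouse ovarian epithelial tumour cells of C57Bl6 origin that were passaged in mice and recovered from ascites. The FAK KO cells are KT13, a single clone of KMF cells with CRISPR/Cas9 edits in exon 4 of Ptk2. The edits are predicted to stop translation of focal adhesion kinase (FAK). The other lines carry those edits too and were made from KT13 by viral transduction, puromycin or hygromycin selection, and sorting. FAK-WT cells express GFP-FAK, FAK-R454 cells express a kinase-inactive GFP-FAK, and β-catenin ΔGSK cells express a β-catenin that lacks the GSK3β sites which mark it for degradation. All were grown without attachment as tumorspheres in PromoCell XF medium for 5 days. KMF cells differ from the clone both in FAK and in cloning, and these cannot be told apart. The labels call the RNA samples independent, and the study's methods say that those of KMF cells came from different passages. Neither names separate cultures for the other lines, so errors and p-values there measure only the spread between these samples, which may be technical.

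A keratin filament is built from pairs of 1 acidic type I keratin and 1 basic type II keratin, and an unpaired chain is degraded. Simple epithelia such as ducts, the ovarian surface and the mesothelium carry Krt8 (type II) with Krt18 and Krt19 (type I), with Krt7 (type II) and Krt20 (type I) in some of them. Basal cells of stratified epithelia carry Krt5 (type II) with Krt14 (type I), and Krt6a (type II) and Krt17 (type I) appear in activated or wounded epithelium. Sprr2a3 is one of several near copies of a small proline-rich protein gene on chromosome 3.

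Each library held between 25390558 and 35289859 fragments on genes, and the 20 most abundant genes took 5.88% to 6.83% of them. Ptk2 mRNA was at 17.6 to 20.5 FPKM in FAK KO, 23.9 to 24.8 in KMF, 42.3 to 45.4 in FAK-WT, 59.2 to 65.5 in FAK-R454 and 15.1 to 15.9 in β-catenin ΔGSK samples. These values count the whole gene, so they do not test the edit itself. Ctnnb1, the gene of β-catenin, was at 207 to 223 FPKM in β-catenin ΔGSK, 195 to 207 in KMF, 139.5 to 148 in FAK KO, 127 to 129.6 in FAK-WT and 133 to 139 FPKM in FAK-R454 samples. In a bulk library, fewer cells of a type and less RNA per cell cannot be told apart. Of 5 immune markers in the table, Ptprc and Cd3e were listed at 0 in every KMF, FAK KO, FAK-WT and FAK-R454 sample, while Cd68 was detected in all lines, with means from 1.32 FPKM (β-catenin ΔGSK) and 2.99 FPKM (FAK KO) up to 8.62 FPKM (FAK-WT). The 19 epithelial surface and junction genes in the table summed to 195 to 282 FPKM, and 5 of them had a mean above 1 FPKM in each line, among them F11r, Cldn3 and Cgn. Their most abundant gene, F11r, had means of 82.9 to 159 FPKM, while Epcam stayed at or below 0.650 FPKM and Ocln was listed at 0 outside β-catenin ΔGSK cells. Krt8, Krt18 and Krt19 were at 160.4 FPKM or more in each of the 14 samples.

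The 3 simple epithelial keratins made up nearly all keratin mRNA. Of 51 keratin genes in the table, 28 are type I and 23 type II. Together Krt8, Krt18 and Krt19 held 90.9% ± 0.274 of summed keratin FPKM in KMF, 96.1% ± 0.170 in FAK KO, 97.2% ± 0.329 in β-catenin ΔGSK and 93.7% ± 1.20 in FAK-WT cells (SD, n = 3 each), and 94.8% ± 0.281 in FAK-R454 cells (SD, n = 2). Krt14 came next among the members, at 3.56 to 67.6 FPKM, then Sprr2a3 at 0.722 to 15.3 FPKM. Krt6a and Krt7 stayed at or below 1.57 and 0.420 FPKM, and Krt5, Krt17 and Krt20 were at the limit of detection. A mean FPKM above 1 in at least 1 line was reached by 6 of the 10: Krt8, Krt18, Krt19, Krt14, Krt6a and Sprr2a3.

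**Figure D1:**
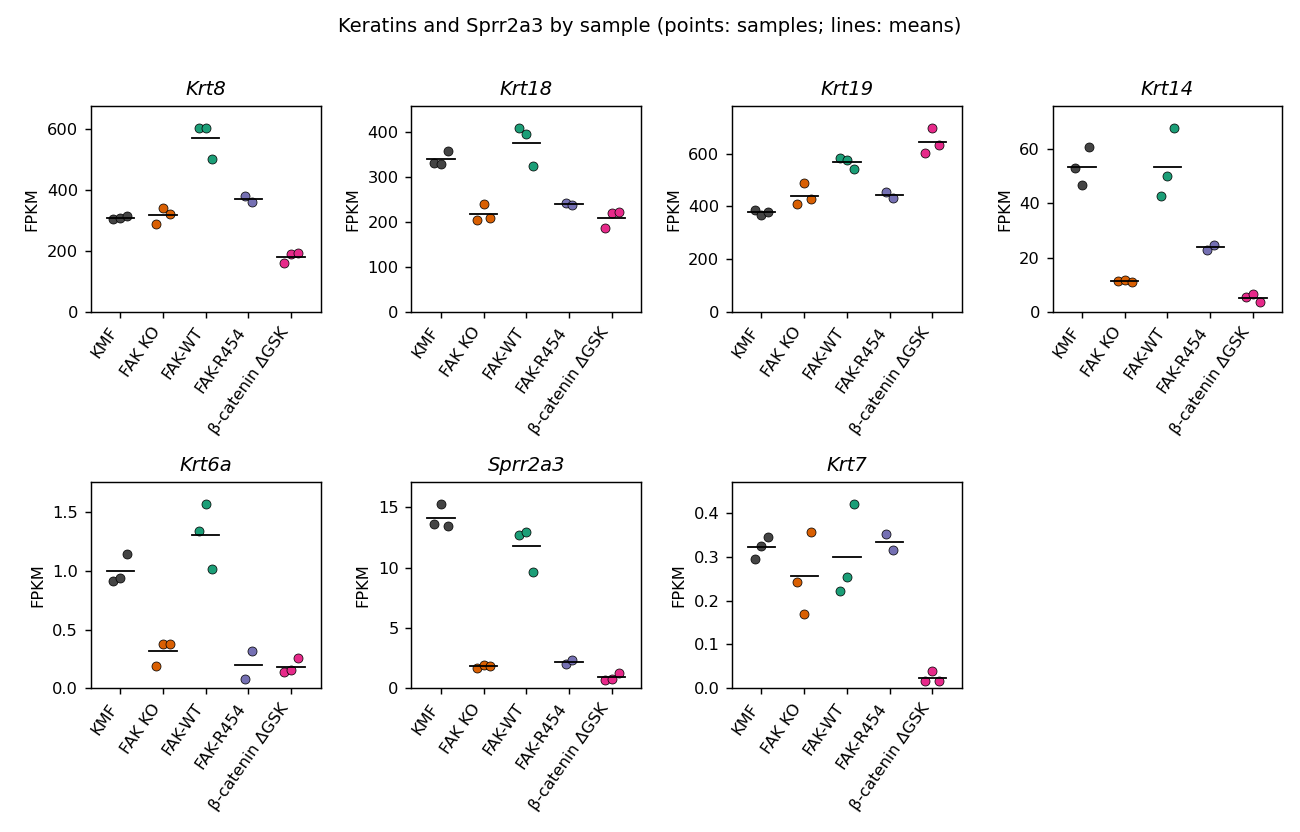
FPKM of 7 of the 10 genes in each sample. Each point is 1 sample and each line the mean of a cell line, on linear axes that start at 0 and differ between genes. Krt14, Krt6a and Sprr2a3 sit high in KMF and FAK-WT samples and low in FAK KO samples, Krt19 is highest in β-catenin ΔGSK samples, where Krt7 is lowest.

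Krt8 (ENSMUSG00000049382, chromosome 15, 101996711 to 102004342, minus strand) encodes the type II partner of Krt18. It was at 305, 308 and 314 FPKM in KMF samples, 289, 341 and 322 in FAK KO samples and 601, 602 and 503 in FAK-WT samples. FAK-R454 samples held 379 and 361 FPKM, and β-catenin ΔGSK samples 160.4, 189 and 193. FAK-WT samples were thus the highest and β-catenin ΔGSK samples the lowest, with no overlap with any other line, and KMF overlapped FAK KO. On the log2(FPKM + 0.1) scale, the difference from FAK KO cells was 0.84 (standard error 0.11) in FAK-WT, 0.22 (standard error 0.08) in FAK-R454, -0.81 (standard error 0.11) in β-catenin ΔGSK and -0.03 (standard error 0.07) in KMF cells. As ratios of mean FPKM to that of FAK KO cells, Krt8 was 1.79-fold higher in FAK-WT and 1.75-fold lower in β-catenin ΔGSK cells. A part of Krt8, 8.51% of its 150-base transcript stretches, is also found in the pseudogene Krt8-ps, so its level carries that uncertainty.

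Krt18 (ENSMUSG00000023043, chromosome 15, 102028216 to 102032026, plus strand) is the type I partner of Krt8 and the only type I keratin of the table on chromosome 15, where 23 type II genes lie. Its samples were at 332, 330.2 and 358 FPKM in KMF, 205, 240.2 and 208 in FAK KO and 409, 396 and 326 in FAK-WT cells. FAK-R454 samples held 243 and 238 FPKM and β-catenin ΔGSK samples 188, 219.7 and 223. KMF and FAK-WT samples overlapped each other and lay above all samples of the remaining 3 lines. The difference from FAK KO cells was 0.64 (standard error 0.08) in KMF and 0.79 (standard error 0.13) in FAK-WT cells on the log2 scale. It was 0.15 (standard error 0.07) in FAK-R454 and -0.05 (standard error 0.11) in β-catenin ΔGSK cells, whose samples overlapped those of FAK KO cells.

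The 2 genes are divergent neighbours whose start sites lie 23874 bases apart. Other genes near them also lay above the median of all genes in FAK-WT and FAK-R454 over FAK KO cells. In FAK-WT over FAK KO cells, the median log2 difference was 0.36 over 51 non-keratin genes within 2 Mb of the pair, 0.30 over 474 on chromosome 15 and -0.08 over all 11831 tested. In FAK-R454 over FAK KO cells these medians were 0.23, 0.14 and -0.03. With each chromosome centred on its own median, Krt8 was at 0.54 and Krt18 at 0.49 in FAK-WT over FAK KO cells. The same centring gave 0.07 for Krt8 and -0.01 for Krt18 in FAK-R454 over FAK KO cells. In β-catenin ΔGSK over FAK KO cells the median near the pair was -0.09, as over all genes, and that of chromosome 15 was 0.01. In KMF over FAK KO cells the medians were 0.04 near the pair, 0.06 on chromosome 15 and -0.05 over all genes. The part of the chromosome in the levels of Krt8 and Krt18 was not tested.

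Because the pair shares a region and pairs as protein, the stretch around each RefSeq start site is shown here. The windows run from 250 bases before the start site through the first 25 bases after it, taken from RefSeq's GRCm38.p6. The Krt8 window is chr15:102004318-102004592 on the minus strand and the Krt18 window is chr15:102027966-102028240 on the plus strand, each written 5′ to 3′ with matches to the searched motifs in capitals.
Krt8: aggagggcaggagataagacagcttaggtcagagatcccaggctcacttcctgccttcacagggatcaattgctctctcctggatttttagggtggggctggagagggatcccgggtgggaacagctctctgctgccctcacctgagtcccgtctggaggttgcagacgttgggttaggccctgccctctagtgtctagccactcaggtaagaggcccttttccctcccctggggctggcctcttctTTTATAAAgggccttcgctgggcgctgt
Krt18: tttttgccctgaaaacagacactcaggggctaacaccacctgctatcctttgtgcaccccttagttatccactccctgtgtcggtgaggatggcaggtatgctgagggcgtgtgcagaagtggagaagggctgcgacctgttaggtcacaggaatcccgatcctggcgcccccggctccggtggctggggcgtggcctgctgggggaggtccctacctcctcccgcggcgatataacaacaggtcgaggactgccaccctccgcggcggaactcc
The motifs searched on both strands were TATAAA, the AP-1 type element TGANTCA, the TCF/LEF type element (CTTTG followed by a further pair of A or T bases), and the GC box GGGCGG. Of 32544 RefSeq windows of the same 275 bases, 12.9% hold TATAAA, 7.33% TGANTCA, 16.0% a TCF/LEF type element and 34.7% GGGCGG. The capitals in Krt8 are 2 overlapping matches of TATAAA, 1 on each strand, that begin 3 and 1 bases before the start site. The Krt18 window holds none of these letters.

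Krt19 (ENSMUSG00000020911, chromosome 11, 100140810 to 100148665, minus strand) is the smallest type I keratin and lacks the tail of the others. It was at 386, 366 and 379.8 FPKM in KMF, 408, 489 and 427 in FAK KO and 583, 577 and 544 in FAK-WT samples. It was at 455 and 433 FPKM in FAK-R454 samples and at 602, 697 and 634 in β-catenin ΔGSK samples. Unlike Krt8 and Krt18, Krt19 was highest in β-catenin ΔGSK and lowest in KMF samples, and only FAK-R454 and FAK KO samples overlapped. The log2 difference from FAK KO cells was 0.55 (standard error 0.10) in β-catenin ΔGSK, 0.37 (standard error 0.08) in FAK-WT, 0.01 (standard error 0.09) in FAK-R454 and -0.22 (standard error 0.08) in KMF cells. In KMF over FAK KO cells the median log2 difference was -0.14 within 2 Mb of Krt14 and Krt19, -0.15 on chromosome 11 and -0.05 over all genes. With each chromosome centred on its own median, Krt19 was at -0.13 in that comparison. The part of the chromosome in its level was not tested. Krt19 thus held 74.5% ± 1.11 of type I keratin FPKM in β-catenin ΔGSK, 65.1% ± 0.446 in FAK KO, 56.4% ± 0.855 in FAK-WT and 48.6% ± 1.28 in KMF cells (SD, n = 3 each).

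Krt14 (ENSMUSG00000045545, chromosome 11, 100203162 to 100207548, minus strand) is the type I keratin of basal cells. KMF samples held 53.0, 46.7 and 60.6 FPKM, FAK KO samples 11.2, 11.7 and 11.2, and FAK-WT samples 42.5, 49.8 and 67.6. FAK-R454 samples held 22.8 and 24.7 FPKM and β-catenin ΔGSK samples 5.35, 6.66 and 3.56. KMF and FAK-WT samples overlapped at the top, and FAK-R454, FAK KO and β-catenin ΔGSK samples followed in that order without overlap. Relative to FAK KO cells Krt14 was 4.71-fold higher in KMF, 4.69-fold higher in FAK-WT and 2.09-fold higher in FAK-R454 cells, and 2.19-fold lower in β-catenin ΔGSK cells. The log2 differences were 2.22 (standard error 0.11), 2.19 (standard error 0.20), 1.06 (standard error 0.06) and -1.16 (standard error 0.26). FAK-WT exceeded FAK-R454 by 1.14 (standard error 0.20). Krt14 was the only gene of the 10 that reached a log2 difference of 1 with no overlap in all 5 comparisons, although FAK-WT over FAK-R454 gave 0.95 without FAK-WT replicate 3 and β-catenin ΔGSK over FAK KO gave -0.92 without β-catenin ΔGSK replicate 3.

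Krt5 (chromosome 15, 101707070 to 101712891), the type II partner of Krt14 in basal cells, was nearly absent. No library held more than 3 fragments of Krt5, while Krt14 had 178 to 3634 fragments per library. Krt17 (chromosome 11, 100256217 to 100261029) had at most 1 fragment in any library and was listed at 0 in all 3 β-catenin ΔGSK samples, which for each library taken alone allows up to 3 fragments. Krt20 (chromosome 11, 99428403 to 99438150), a keratin of intestinal and urothelial cells, had 0 to 5 fragments per library, with 3 in each FAK KO sample. No fold change is given for Krt5, Krt17 or Krt20, since their counts were at or near that floor of 3 fragments in both lines of every comparison.

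Sprr2a3 (ENSMUSG00000074445, chromosome 3, 92288569 to 92289251, plus strand) showed the largest log2 differences of the 10 in KMF and in FAK-WT over FAK KO cells. It was at 13.7, 15.3 and 13.5 FPKM in KMF samples, 1.65, 1.97 and 1.83 in FAK KO samples and 12.7, 13.0 and 9.65 in FAK-WT samples. FAK-R454 samples held 2.06 and 2.36 FPKM and β-catenin ΔGSK samples 0.722, 0.750 and 1.29. No 2 neighbouring lines in the order KMF, FAK-WT, FAK-R454, FAK KO and β-catenin ΔGSK overlapped. Relative to FAK KO cells, Sprr2a3 was 7.78-fold higher in KMF and 6.49-fold higher in FAK-WT cells, with log2 differences of 2.89 (standard error 0.09) and 2.62 (standard error 0.15). The median log2 difference on chromosome 3 was 0.21 in KMF and -0.10 in FAK-WT over FAK KO cells. With each chromosome centred on its own median, Sprr2a3 was at 2.66 and 2.75 in these comparisons. The part of the chromosome in its level was not tested. FAK-R454 cells were 1.21-fold above FAK KO cells, a log2 difference of 0.27 (standard error 0.12). That ratio rests on 90 against 104 fragments, and its 95% counting interval (0.914 to 1.64), which covers counting error only, includes no difference. FAK-WT cells were 5.34-fold above FAK-R454 cells, a log2 difference of 2.36 (standard error 0.17). β-catenin ΔGSK cells were 1.97-fold below FAK KO cells, a log2 difference of -0.95 (standard error 0.26), or -0.56 with a pseudocount of 1. The copies Sprr2a1 and Sprr2a2 share 150-base stretches with Sprr2a3, namely 6.94% of those in its 682-base transcript and 19.0% over all its transcripts. Their mean levels in KMF cells, 0.103 and 0.166 FPKM, were the highest of any line, so fragments assigned between the copies make the Sprr2a3 values uncertain.

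Krt6a (ENSMUSG00000058354, chromosome 15, 101689932 to 101694307, minus strand), induced in activated epithelium, was likewise high in KMF and FAK-WT cells, at a far lower level. KMF samples held 0.915, 0.937 and 1.14 FPKM, FAK KO samples 0.191, 0.374 and 0.380, and FAK-WT samples 1.34, 1.57 and 1.02. FAK-R454 samples held 0.0798 and 0.322 FPKM, from 5 and 23 fragments, and β-catenin ΔGSK samples 0.141, 0.157 and 0.256. KMF and FAK-WT samples lay above all others, and the 3 low lines overlapped. Krt6a was 3.17-fold higher in KMF than in FAK KO cells (95% counting interval 2.42 to 4.41) and 4.15-fold higher in FAK-WT cells (95% counting interval 3.13 to 5.62). The log2 differences were 1.43 (standard error 0.25) and 1.78 (standard error 0.29), and with a pseudocount of 1 they fell to 0.61 and 0.81. FAK-WT exceeded FAK-R454 by 2.33 (standard error 0.64), or 0.94 with a pseudocount of 1, and 6.51-fold as a ratio of means (95% counting interval 4.19 to 9.51). The log2 difference was 2.95 without FAK-R454 replicate 2 and 1.72 without FAK-R454 replicate 1, and the counting interval does not cover this spread between samples. FAK-R454 and β-catenin ΔGSK lay at -0.56 (standard error 0.66) and -0.53 (standard error 0.29) from FAK KO cells. These intervals are exact binomial intervals and cover counting error only. Krt6a shares 26.7% of its 150-base stretches with Krt6b and the gene models Gm5478 and Gm49428, and Krt6b had no fragments outside KMF samples.

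Krt7 (ENSMUSG00000023039, chromosome 15, 101411043 to 101430313, plus strand), a type II keratin of ducts and mesothelium, was low in every line and lowest in β-catenin ΔGSK cells. It was at 0.294, 0.324 and 0.346 FPKM in KMF, 0.243, 0.169 and 0.358 in FAK KO and 0.221, 0.255 and 0.420 in FAK-WT samples. FAK-R454 samples held 0.352 and 0.316 FPKM and β-catenin ΔGSK samples 0.0172, 0.0385 and 0.0166. The first 4 lines overlapped, and the β-catenin ΔGSK samples lay below them all. In fragments, the β-catenin ΔGSK libraries held 8 in all and the FAK KO libraries 89, and the mean was 10.6-fold lower (95% counting interval 5.35 to 26.3). The log2 difference was -1.49 (standard error 0.24), and -0.29 with a pseudocount of 1.

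Counted over the 10 genes, 3 were higher by a log2 difference of 1 or more with no overlap of samples in KMF over FAK KO cells (Krt6a, Krt14 and Sprr2a3), and none was lower. By the same rule 8.00% of 11893 tested genes differed in either direction. In FAK-WT over FAK KO cells Krt6a, Krt14 and Sprr2a3 were again the 3 higher genes, where 4.66% of 11841 tested genes met the rule in either direction. FAK-R454 over FAK KO cells gave only Krt14 as higher, against 2.88% of 11818 tested genes. Without FAK-R454 replicate 2 the count was 2, with Krt6a as the added gene in the lower direction at a log2 difference of -1.17 that rests on 1 library with 5 fragments. Without FAK-R454 replicate 1 that difference was 0.06. In β-catenin ΔGSK over FAK KO cells Krt7 and Krt14 were lower and none was higher, against 12.1% of 11915 tested genes. Without β-catenin ΔGSK replicate 3 these were Krt7 and Sprr2a3 (-1.19) instead, and Sprr2a3 (-1.01) joined the pair without FAK KO replicate 1. FAK-WT over FAK-R454 cells gave Krt6a, Krt14 and Sprr2a3 as higher, against 1.76% of 11782 tested genes. Nothing is read from these shares, since the genes were selected on the same values. Krt5, Krt7, Krt17 and Krt20 in every comparison and Krt6a in 3 of them were below the mean FPKM of 1 needed for the tested genes. The 4 comparisons against FAK KO share its 3 samples, so their values are not independent of each other.

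**Figure D2:**
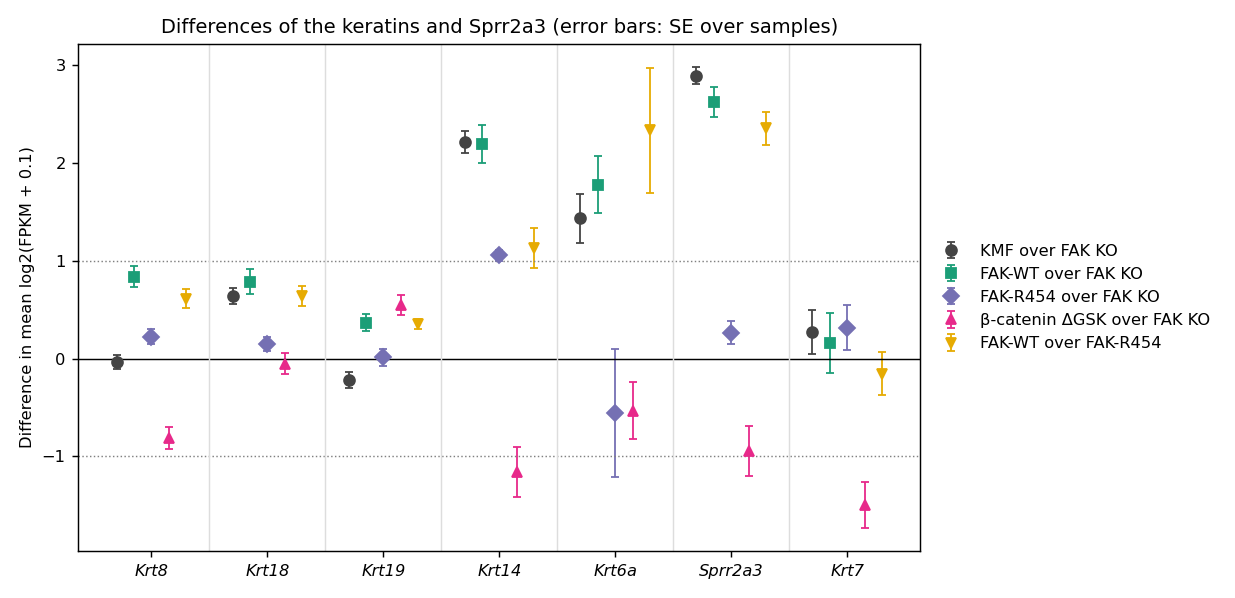
Differences in mean log2(FPKM + 0.1) for 7 of the 10 genes in 5 comparisons. Symbols are differences, bars their standard error over samples, and dotted lines mark a difference of 1 in either direction. Krt14 and Sprr2a3 lie above 2 for KMF and FAK-WT over FAK KO cells, and Krt19 is the only gene above 0 for β-catenin ΔGSK over FAK KO cells.

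The balance between partners also differed between lines. The ratio of Krt8 to Krt18 FPKM was 0.920, 0.933 and 0.879 in KMF samples and 0.854, 0.861 and 0.866 in β-catenin ΔGSK samples. It was 1.41, 1.42 and 1.54 in FAK KO, 1.47, 1.52 and 1.54 in FAK-WT and 1.56 and 1.51 in FAK-R454 samples. Every KMF and β-catenin ΔGSK sample lay below 1 and every sample of the other 3 lines above 1.4. Krt8 thus exceeded Krt18 per length in FAK KO cells and in both lines with GFP-FAK, and fell short of it in KMF and β-catenin ΔGSK cells. Whether a ratio lies above or below 1 also depends on the gene lengths used and on the stretches shared with Krt8-ps. Only its differences between lines are therefore read. Summed over all keratins, the ratio of type I to type II FPKM was 2.20 ± 0.0818 in KMF cells, 2.00 ± 0.0866 in FAK KO cells, 1.67 ± 0.0812 in FAK-WT cells and 4.33 ± 0.210 in β-catenin ΔGSK cells (SD over 3 samples). It was 1.82 ± 0.0129 in FAK-R454 cells (SD over 2 samples). The β-catenin ΔGSK ratio rested on both sums: type I was 865 ± 64.6 FPKM against 677 ± 61.4 in FAK KO cells, and type II was 200.1 ± 19.7 against 339 ± 28.5 (SD, n = 3 each). Krt14 was 6.87% ± 0.656 of type I FPKM in KMF, 5.34% ± 1.60 in FAK-WT, 1.68% ± 0.113 in FAK KO and 0.599% ± 0.164 in β-catenin ΔGSK samples (SD over 3 samples), and 3.31% ± 0.260 in FAK-R454 cells (SD, n = 2).

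**Figure D3:**
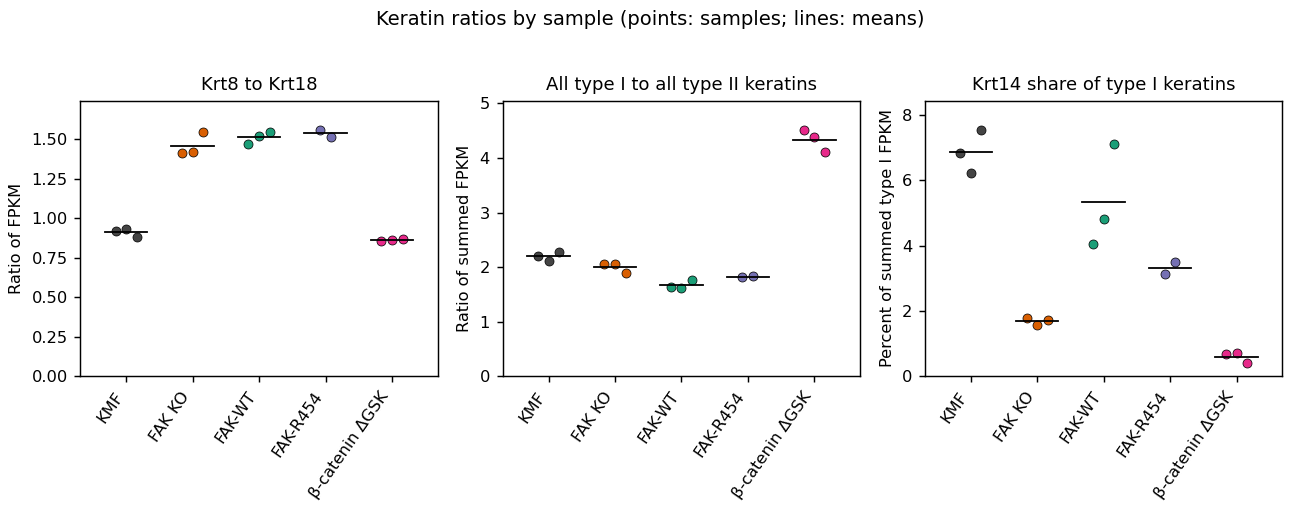
Ratio of Krt8 to Krt18 FPKM, ratio of summed type I to type II keratin FPKM, and Krt14 as a percentage of type I FPKM, in each sample. Points are samples and lines the means of each cell line. The Krt8 to Krt18 ratio is below 1 in KMF and β-catenin ΔGSK samples, and the type I to type II ratio is above 4 only in β-catenin ΔGSK samples.

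Across the 14 samples, Krt6a, Krt14, Krt18 and Sprr2a3 varied together, and Krt19 did not. Pearson's r of log2(FPKM + 0.1) with Sprr2a3 was 0.95 for Krt18, 0.92 for Krt6a and 0.92 for Krt14. Krt8 followed Krt14 at r = 0.76 and Krt18 at r = 0.73. Krt19 had an r of -0.15 with Krt18, -0.16 with Krt8, -0.20 with Krt6a, -0.42 with Sprr2a3 and -0.48 with Krt14. These values describe 14 samples that fall into 5 lines, share a library size within each sample, and were the basis of the selection.

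The 3 genes most like each expressed member were sought by the same r over 14 samples. The search covered 2826 genes with a mean above 1 FPKM in a line and line means spanning at least 1 on the log2 scale. Krt18 and Krt19 spanned less and were not among them. Krt8 was closest to Msln, the mesothelial surface protein mesothelin (r = 0.97), then Ptgds and Pnliprp2. For Krt18 they were Sprr2a3, the TGFβ co-receptor gene Tgfbr3 (r = 0.93) and Krt6a. Krt19 was closest to Avpi1 (r = 0.97), with means of 293 FPKM in β-catenin ΔGSK and 96.6 FPKM in KMF cells, then Syt7 and Ptpn5. Krt14 was closest to Dock8 (r = 0.98), then Pcolce2 and Mrgprf. Sprr2a3 was closest to the calcium channel gene Trpv4 (r = 0.99), with means of 7.89 FPKM in KMF and 2.01 FPKM in FAK KO cells, then Cela1 and Sybu. Within that search Krt6a was closest to Sprr2a3, then Scd1 (r = 0.907) and Tgfbr3. Krt18, left out of the search, had an r of 0.914 with Krt6a.

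The rest of the keratin family was tested with limma, and a gene was called where the adjusted p fell under 0.05, the log2 fold change reached 1 in either direction and the higher line had a mean FPKM above 1. Of 42 other keratin genes, 12 were at 0 in every sample and 6 had a mean above 1 FPKM in a line: Krt10, Krt80, Krt76, Krt15, Krt16 and Krt33a. Of 14 other Sprr genes, 2 were at 0 throughout and only Sprr1a passed 1 FPKM. Krt76, a type II keratin of the oral epithelium, was at 0.542 to 0.919 FPKM in KMF, 2.69 to 3.24 in FAK KO, 10.1 or more in FAK-WT, 8.53 to 9.06 in FAK-R454 and 7.42 to 10.8 FPKM in β-catenin ΔGSK samples. It rose over FAK KO cells in all 3 lines made from them, by 1.75 in FAK-WT (adjusted p = 1.74e-05), 1.51 in FAK-R454 (adjusted p = 1.42e-04) and 1.55 in the β-catenin ΔGSK line (adjusted p = 3.09e-05, limma). In KMF cells its log2 fold change was -1.99 (adjusted p = 5.77e-05, limma). Krt15, a type I basal keratin, was lower than in FAK KO cells in KMF cells (log2 fold change -2.12, adjusted p = 4.80e-05) and in the β-catenin ΔGSK line (-1.36, adjusted p = 6.60e-04), and higher in FAK-R454 cells (1.16, adjusted p = 1.12e-03, limma). With a pseudocount of 1 the Krt15 values were -0.75 in β-catenin ΔGSK and 0.87 in FAK-R454 cells, and neither was called.

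Krt80, a type II keratin found in many epithelia, was at 35.5 to 46.2 FPKM in KMF and 14.5 to 19.5 FPKM in FAK KO samples, and was called higher in KMF cells (log2 fold change 1.27, adjusted p = 8.59e-05, limma). It was at 21.4 to 25.2 FPKM in FAK-WT, 14.3 to 14.5 in FAK-R454 and 7.33 to 11.4 in β-catenin ΔGSK samples. The log2 differences of these lines from FAK KO cells were 0.47, -0.25 and -0.86, and none was called. Krt16, a type I keratin induced together with Krt6a, was at 0.270 to 0.403 FPKM in FAK KO and 0.943 to 2.30 FPKM in FAK-WT samples and was called higher in the latter, by 1.77 on the log2 scale (adjusted p = 4.36e-03, limma), or 0.85 and not called with a pseudocount of 1. It shares 18.4% of its 150-base stretches with the gene model Gm11597. In β-catenin ΔGSK libraries Krt16 had 4 fragments in all, against 44 in FAK KO libraries, a ratio of means of 10.8 with a wide 95% counting interval (3.96 to 41.7), and both means fell below the level tested. Krt33a, a hair keratin, was at 0.921 to 1.59 FPKM in β-catenin ΔGSK samples and 0.158 to 0.319 FPKM in FAK KO samples and was called higher by 1.97 on the log2 scale (adjusted p = 3.64e-04, limma), or 0.85 and not called with a pseudocount of 1. It shares 7.64% of its 150-base stretches with Krt31 and Krt34. Krt10, of differentiated epidermis, was at 3.16 to 5.16 FPKM in all samples and was called in no comparison. Between FAK-WT and FAK-R454 cells limma called none of 5 other keratins tested. Sprr1a was at 79.2, 93.3 and 136.4 FPKM in FAK-WT samples, above the 24.1 to 53.5 FPKM of all other samples. It rose by 1.18 over FAK KO (adjusted p = 2.60e-03) and by 1.62 over FAK-R454 cells (adjusted p = 0.0158, limma), and the second call was lost when FAK-WT replicate 2 (adjusted p = 0.0566) or either FAK-R454 sample (adjusted p = 0.165 and 0.194, limma) was left out, with log2 fold changes of 1.67, 1.68 and 1.55. Without FAK-WT replicate 3 the first fell to 0.95, under the fold threshold.

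**Figure D4:**
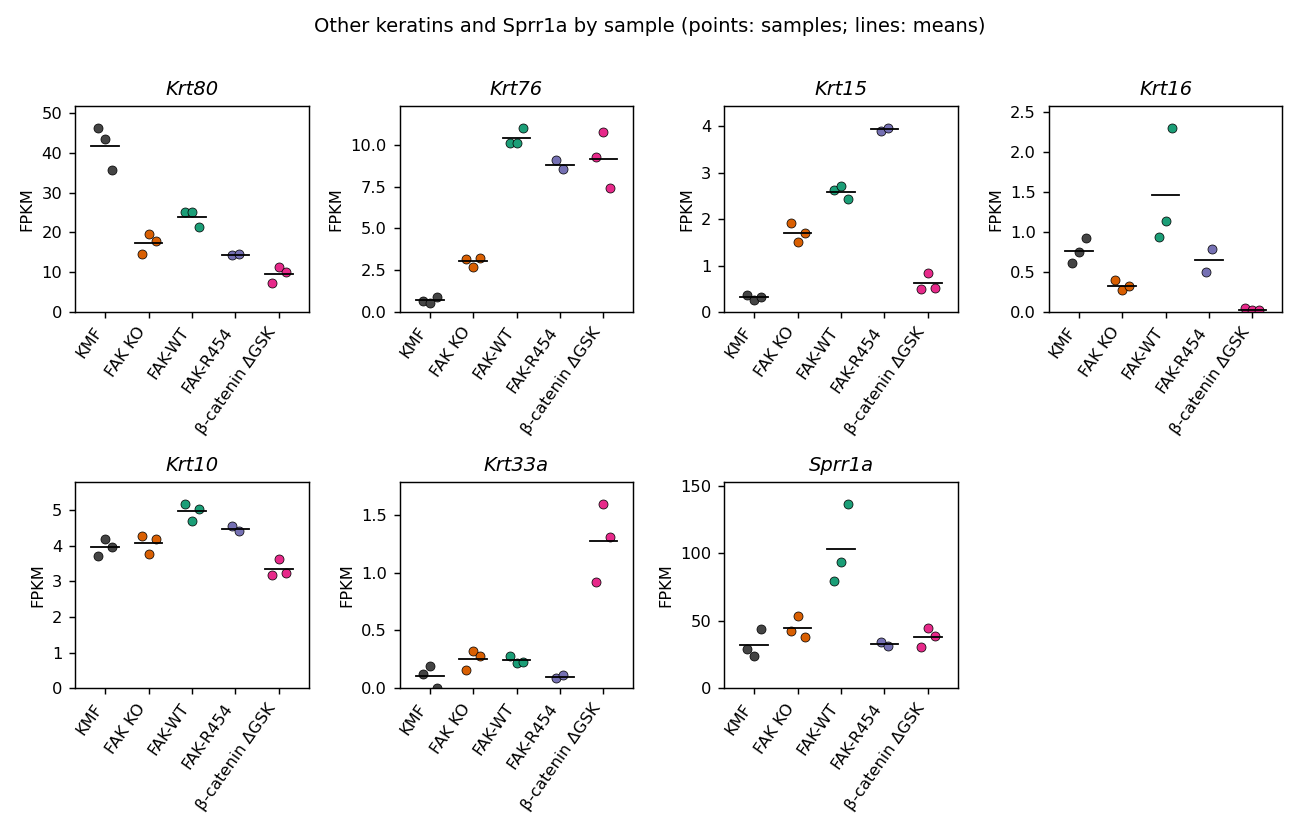
FPKM of the 6 other keratins above 1 FPKM in a line and of Sprr1a in each sample. Points are samples and lines means, on linear axes that start at 0. Krt76 is lowest in KMF samples, Krt15 is highest in FAK-R454 samples, and Sprr1a is highest in FAK-WT samples.

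Genes that work with keratins were counted in 7 lists: desmosome and keratin linkers, hemidesmosome, cornified envelope, epithelial transcription factors, epithelial surface and junction, other intermediate filaments, and keratin stability and kinases. They hold 110 genes, 109 of them in the table. The lists were chosen with earlier results of these data known. Nothing is therefore read, here or below, from their counts or medians against those of all tested genes. In KMF over FAK KO cells limma called 6 of 52 tested higher and 3 lower, against 8.01% of all tested genes, and their median log2 fold change was 0.12 against -0.05 over all genes. Those higher were Lamb3, a hemidesmosomal laminin chain (log2 fold change 4.65, adjusted p = 6.77e-07), the transcription factors Klf5 (2.09) and Elf3 (1.74), the desmosomal plaque genes Dsp (1.38) and Pkp1 (1.19), and Scel of the cornified envelope (1.20). Cldn3 (-1.56), Cgn (-1.34) and the desmosomal cadherin Dsg2 (-1.15) were lower. With each chromosome centred, Dsg2 was at -0.71 and Pkp1 at 0.99, and neither was called. None of 7 other intermediate filament genes and none of 7 stability and kinase genes was called.

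In FAK-WT over FAK KO cells limma called 8 of 52 list genes higher and none lower, against 4.62% of all tested genes, with a median of 0.11 against -0.08. They were Lamb3 (2.55), the transcription factors Ehf (1.87) and Klf5 (1.60), the neuronal filament gene Prph (1.57), the cornified envelope genes Sprr1a, Tgm5 (1.04) and Cdsn (1.01), and the keratin linker Ppl (1.06). Leaving out FAK-WT replicate 3 left 4 list genes called, losing Sprr1a, Tgm5, Cdsn and Ppl, whose log2 fold changes were then 0.95, 0.92, 0.90 and 0.99. Cdsn was also lost without FAK KO replicate 1 (0.95). In FAK-R454 over FAK KO cells none of 50 list genes was called by limma, against 2.74% of all tested genes. At an unadjusted p under 0.05 there were 20, and limma-voom on recovered fragments called 1, Prph. The median there was 0.00 against -0.03 over all genes.

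In β-catenin ΔGSK over FAK KO cells 9 of 53 list genes rose and 3 fell, against 12.1% of all tested genes, with a median of -0.11 against -0.09. The rises were in the transcription factors Foxa1 (2.45), Grhl1 (2.32) and Klf5 (1.79), in Tgm5 (2.26) and Scel (1.06) of the cornified envelope, in Prph (1.79), Synm (1.68), Cgn (1.25) and Pkp4 (1.17). The falls were in Pkp1, which went from 15.3 to 0.976 FPKM (log2 fold change -3.87, adjusted p = 3.21e-07, limma), Nes (-1.09) and Itgb4 (-1.06). Itgb4 encodes the hemidesmosomal integrin chain that anchors keratins, and was still at 30.8 FPKM. Without β-catenin ΔGSK replicate 1 both Itgb4 and Scel (0.99) fell just under the fold threshold, as did Scel without FAK KO replicate 2 (0.95). Between FAK-WT and FAK-R454 cells 2 of 52 list genes were called, Ehf (1.89, adjusted p = 0.0121, limma) and Sprr1a, against 1.44% of all tested genes, with a median of 0.15 against -0.05. The Ehf call was lost without FAK-WT replicate 2 (adjusted p = 0.0587) or without either FAK-R454 sample (adjusted p = 0.131 and 0.161, limma), with log2 fold changes of 1.85, 2.00 and 1.77.

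Markers of other cell types, and those of the mesothelium and ovarian surface, moved between lines as well. Of 7 fibroblast markers, whose summed level was 81.1 to 100.9 FPKM in KMF, 96.7 to 136 in FAK KO, 156 to 185 in FAK-WT, 146 to 158 in FAK-R454 and 31.1 to 45.3 in β-catenin ΔGSK samples, Thy1 was listed at 0 in FAK KO and all 3 lines made from it. Limma called Col1a1, Col3a1 and Pdgfra higher than FAK KO in FAK-WT and FAK-R454 cells and lower, with Dcn, in β-catenin ΔGSK cells. In KMF cells Col3a1 and Pdgfra were called higher and Dcn lower. The 8 mesothelial and ovarian surface markers summed to 184 to 208 FPKM in KMF, 199.9 to 208 in FAK KO, 215 to 245 in FAK-WT, 251 to 259 in FAK-R454 and 306 to 328 in β-catenin ΔGSK samples, with Calb2 listed at 0 outside FAK-WT cells. Upk3b and Lrrn4 were called higher in FAK-R454 and Upk3b and Wt1 in β-catenin ΔGSK than in FAK KO cells, and Upk3b and Lrrn4 were called higher in FAK-R454 than in FAK-WT cells. The 5 immune markers summed to 1.05 to 12.3 FPKM, of which Cd68 was called higher in FAK-WT and lower in β-catenin ΔGSK than in FAK KO cells. The 4 endothelial markers summed to 6.55 to 30.0 FPKM, Pecam1 and Tek were called lower in β-catenin ΔGSK than in FAK KO cells, and Kdr was listed at 0 outside β-catenin ΔGSK cells. The part of these markers in the keratin levels was not tested.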

How the data were processed

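Poly(A)-selected libraries were made with a kit that does not mark strand and sequenced as read pairs. The authors deposited FPKM per gene for 14 samples. Their methods name TopHat2 as the mapper, and the submitters' processing notes list STAR 2.5, CASAVA 1.8, DESeq2 and mm10. FPKM times gene length gave whole fragments for 100% of values within 0.01, which gave the depth. Coordinates are those of the table (mm10, GRCm38). The 10 genes and the lists were chosen with earlier results of these data known. Members were described by mean ± SD of FPKM and by mean differences of log2(FPKM + 0.1), which understates changes of low genes. Other genes were tested with limma 3.58.1 in R 4.3.3 (variance trend, Benjamini-Hochberg over all genes tested) on the samples of 2 lines and genes with a mean FPKM above 1 in either. List genes named are those called without overlap, at most 4 per direction, list and comparison; other keratins and Sprr genes are those above 1 FPKM. Python 3.11.15 was used for the rest, and the test was checked on simulated data. Promoters are RefSeq's, and shared 150-base stretches were found by exact match to GENCODE transcripts.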

Additional observations from a re-analysis of the deposited data

How the results depend on the processing

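Precision is limited by 2 or 3 samples per line and, for Krt5, Krt17, Krt20, Krt7 and Krt6a, by few fragments. In the fits across all genes, KMF over FAK KO cells gave 472 higher and 481 lower genes, FAK-WT over FAK KO 344 and 203, FAK-R454 over FAK KO 228 and 96, β-catenin ΔGSK over FAK KO 611 and 833, and FAK-WT over FAK-R454 82 and 88. In the same order of comparisons, a pseudocount of 1 gave 274 and 292, 174 and 99, 108 and 37, 535 lower for β-catenin ΔGSK, and 26 and 50. A filter of mean FPKM above 5 gave 236 and 223, 151 and 98, 89 and 40, 350 and 432, and 26 and 39. Without a fold threshold there were 2749 and 3412, 1851 and 2986, 1156 and 1169, 2828 and 4100, and 398 and 523. Median-of-ratios scaling gave 527 and 440 in KMF over FAK KO, 728 and 705 in β-catenin ΔGSK over FAK KO, and 95 and 80 in FAK-WT over FAK-R454. With chromosomes centred these were 477 and 443, 713 and 717, and 81 and 73. Which direction held more calls in these comparisons thus depended on the scaling. Of the keratin-associated lists, 9, 8, 0, 12 and 2 genes were called, and 29, 28, 13, 43 and 14 without a fold threshold. The filter above 5 left 5 in FAK-WT over FAK KO, 7 in β-catenin ΔGSK and 1 in FAK-WT over FAK-R454. Median-of-ratios scaling and limma-voom each gave 1 in FAK-R454 over FAK KO. Of the other keratins and Sprr genes, 3, 3, 2, 3 and 1 were called. The filter above 5 left 1 in KMF, FAK-R454 and β-catenin ΔGSK over FAK KO, a pseudocount of 1 left 1 in the last 2 of these, and no fold threshold gave 6 in FAK-WT over FAK KO, 5 in β-catenin ΔGSK and 3 in FAK-WT over FAK-R454. With a pseudocount of 1, 1 member instead of 2 differed in β-catenin ΔGSK over FAK KO cells, since Krt7 fell below the threshold, and 2 instead of 3 in KMF and FAK-WT over FAK KO and FAK-WT over FAK-R454, since Krt6a did. Of 41 calls of single list genes, other keratins or Sprr genes, 11 fell under the fold threshold with a pseudocount of 1 (Scel and Dsg2 in KMF, Klf5, Cdsn and Krt16 in FAK-WT, Krt15 in FAK-R454, and Nes, Scel, Synm, Krt33a and Krt15 in β-catenin ΔGSK over FAK KO), 4 with chromosomes centred (Pkp1 and Dsg2 in KMF, Cdsn in FAK-WT, Scel in β-catenin ΔGSK) and 2 with median-of-ratios scaling (Nes and Itgb4 in β-catenin ΔGSK), and none under limma-voom, no variance trend or no filter. Fewer tested genes explain the counts under the stricter filter, and for the others the cause was not tested.

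Leaving out 1 sample at a time kept the counts in KMF, FAK-WT and β-catenin ΔGSK over FAK KO within 1.5 times of these. It gave 148 to 256 and 81 to 116 in FAK-R454 over FAK KO and 4 to 109 and 3 to 111 in FAK-WT over FAK-R454. The 148 came without FAK-R454 replicate 2. The lowest counts of FAK-WT over FAK-R454 came without either FAK-R454 sample, when the lone sample is assumed to vary like the FAK-WT samples, and leaving out FAK-WT replicate 2 gave 30 and 51. Keratin-associated genes ranged from 9 to 9, 4 to 9, 0 to 1, 10 to 12 and 0 to 4, other keratins and Sprr genes from 3 to 3, 2 to 3, 2 to 2, 3 to 3 and 0 to 1, and members from 3 to 3, 3 to 3, 1 to 2, 2 to 3 and 2 to 3. In FAK-WT over FAK-R454, 4 keratin-associated genes were called without FAK-WT replicate 1, and none of these or of the other keratins and Sprr genes without FAK-WT replicate 2 or either FAK-R454 sample. FAK-R454 over FAK KO gained 1 without FAK KO replicate 2 or FAK-R454 replicate 2. No direction of a member difference of 1 or more changed.

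Sample numbers recur between lines, but same-numbered samples correlated from -0.25 to 0.45 in their deviations, and only 1, 0 and 4 of 6 samples correlated best with their own number in KMF, FAK-WT and β-catenin ΔGSK against FAK KO. In the comparison order above, the replicate block called 958, 552, 329, 1447 and 222 genes, against 953, 547, 324, 1444 and 170, with 953, 545, 294, 1444 and 157 in both. It changed no call of a listed gene, and Krt14 in FAK-WT over FAK-R454 was then at 0.95.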
